A study of Mus musculus with 13 samples.

Results

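Uchl1 and 8 other genes known from spermatogonia, the stem and progenitor cells of the postnatal testis, were followed across 12 RNA libraries of mouse male primordial germ cells. The 9 genes (Uchl1, Egr4, Gfra1, Ret, Etv5, Id4, Zbtb16, Bcl6b and Sohlh1) were taken by symbol from a table of 35976 gene symbols, and all 9 were found. Uchl1 was picked from these libraries because its transcript is lower in KO and not in V. Its values are therefore given below as a description, with no test in any comparison.

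The libraries came from E14.5 male germ cells that carried an Oct4-GFP reporter, a fluorescent protein that marks germ cells and by which they were sorted. Each genotype had 3 libraries, made from poly(A) RNA of 5000 cells per extraction. The genotypes are alleles of Tet1, which encodes an enzyme that oxidises 5-methylcytosine in DNA: KO is the knockout, HxD and V are mutant alleles, and WT is the wild type. The labels do not spell out HxD and V. They are known from work on TET1 as a protein without catalytic activity and as a protein that stops at 5-hydroxymethylcytosine. The labels also do not say which part of Tet1 the KO lacks, whether embryos were pooled, or whether replicates came from separate embryos, so p-values measure the spread between these libraries, which may be technical. The number of cells per extraction was the same, but in bulk RNA fewer cells of a type and less RNA per cell cannot be told apart.

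UCHL1 is a ubiquitin C-terminal hydrolase, a protease that frees ubiquitin from small adducts. It is abundant in neurons and is used as a marker of spermatogonia. In the postnatal mouse testis, GDNF from Sertoli cells binds the co-receptor GFRA1 on spermatogonia, and the pair signals through the receptor tyrosine kinase RET. In cultured mouse spermatogonia this signal raises the transcription factor genes Etv5, Bcl6b and Id4, while ZBTB16 (PLZF) sustains the stem cells and SOHLH1 promotes their differentiation. At E14.5 male germ cells are leaving the cell cycle, well before spermatogonia form.

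Uchl1 (GRCm38, chromosome 5, 66676091 to 66687234, plus strand) and Egr4 (chromosome 6, 85511121 to 85513589, minus strand) were the members well above 0 whose mean was lowest in KO and next lowest in HxD. Their RefSeq promoter windows (GRCm38.p6, 250 bases before to 50 after the start) are shown because they differ in CpG dinucleotides, the sites at which DNA methylation is placed and TET1 acts; capitals mark each CG. The Uchl1 window lies on the plus strand at chr5:66675871-66676170 and the Egr4 window on the minus strand at chr6:85513540-85513839.
Uchl1 promoter: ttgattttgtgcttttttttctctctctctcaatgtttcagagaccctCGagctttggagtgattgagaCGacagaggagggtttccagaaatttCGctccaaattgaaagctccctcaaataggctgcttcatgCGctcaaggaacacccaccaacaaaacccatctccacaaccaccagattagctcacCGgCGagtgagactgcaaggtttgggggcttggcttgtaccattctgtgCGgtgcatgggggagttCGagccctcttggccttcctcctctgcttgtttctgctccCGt
Egr4 promoter: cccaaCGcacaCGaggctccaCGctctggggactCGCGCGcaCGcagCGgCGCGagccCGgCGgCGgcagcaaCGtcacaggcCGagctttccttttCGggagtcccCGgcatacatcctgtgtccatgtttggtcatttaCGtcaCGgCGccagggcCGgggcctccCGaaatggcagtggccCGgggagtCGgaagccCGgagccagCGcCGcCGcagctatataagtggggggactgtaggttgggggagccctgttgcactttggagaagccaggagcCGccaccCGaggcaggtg
The Uchl1 window held 9 CpGs, with an observed-to-expected ratio of 0.470, and the Egr4 window held 30, with a ratio of 0.876. The median over 32851 windows was 7 CpGs. As many as in Uchl1 or more stood in 45.8% of windows, against 11.7% for Egr4. Of the 9 members, 6 matched the RefSeq windows. Among the others matched, Id4 had 39 CpGs, Etv5 37 and 19 in its 2 windows, Sohlh1 14 and Gfra1 12. DNA methylation was not measured in these libraries, so the counts of CpG describe the sequence only.

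Library totals ran from 13584484 counts in V 3 to 29641963 in HxD 1, and 11529 (WT 3) to 15715 (V 2) symbols had a count. Values below are TMM-scaled CPM, which give a gene's counts relative to the library total, and 14702 genes passed the expression filter. Tet1 checked the labels: it had 213 ± 11.8 CPM in KO against 608 ± 27.0 CPM in WT (SD, n = 3, edgeR log2 fold change -1.51 with SE 0.17, adjusted p = 1.41e-05). HxD had 626 ± 101 CPM and V 480 ± 133 CPM of Tet1. The summed level of 12 male germ cell markers was 3981 to 4392 CPM in KO, 3752 to 4716 in HxD and 4346 to 4579 in V, against 5209 to 5484 in WT. Dazl, a germ cell RNA-binding protein gene, had 720 to 1071 CPM in KO, 576 to 944 in HxD and 672 to 1172 in V, against 1605 to 1906 in WT. Without Dazl the sums overlapped, at 3125 to 3635 CPM in KO, 3176 to 3773 in HxD and 3407 to 3673 in V, against 3304 to 3732 in WT. That overlap holds differences in both directions. Ddx4 had 465 to 591 CPM in KO against 772 to 981 in WT, and Mael 9.54 to 32.9 against 89.6 to 173. Tfap2c had 120 to 135 CPM in KO against 48.2 to 96.3 in WT, and Dnd1 236 to 269 against 149 to 201. Of the 12 markers, 7 were lower and 5 higher in KO than in WT. EdgeR called 2 of them lower, beside 0.218% of all tested genes called. The part of these markers in the results below was not tested.

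On average Uchl1 was lowest in KO, intermediate in HxD and highest in V and WT. It had 52.2, 47.0 and 27.5 CPM in the KO libraries, 93.2, 90.4 and 97.2 CPM in HxD, 224, 81.6 and 121 CPM in V, and 174, 122 and 182 CPM in WT. These values rest on 719 to 1181 counts in KO, 1504 to 2725 in HxD, 1648 to 5015 in V and 2672 to 4149 in WT. All 3 KO libraries lay below the other 9, and all 3 HxD libraries lay below all 3 WT libraries. The fall in KO is why Uchl1 was picked. Over all tested genes, libraries did not overlap for 16.3% in KO against WT and 12.5% in HxD against WT. Between mutants the share was 9.33% in HxD against KO and 10.3% in V against KO.

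The mean in KO was 42.2 ± 13.0 CPM, which is 26.5% of the WT mean of 159 ± 32.9 CPM (log2 fold change -1.92). In HxD the mean of 93.6 ± 3.42 CPM was 58.8% of WT (log2 fold change -0.77). The V mean of 142 ± 73.7 CPM was 89.4% of WT (log2 fold change -0.16). The order of means was thus WT, V, HxD and KO from high to low. Neighbours in that order overlapped library by library between V and WT and between V and HxD. They did not overlap between HxD and KO, as was so for 9.33% of all tested genes.

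**Figure D1:**
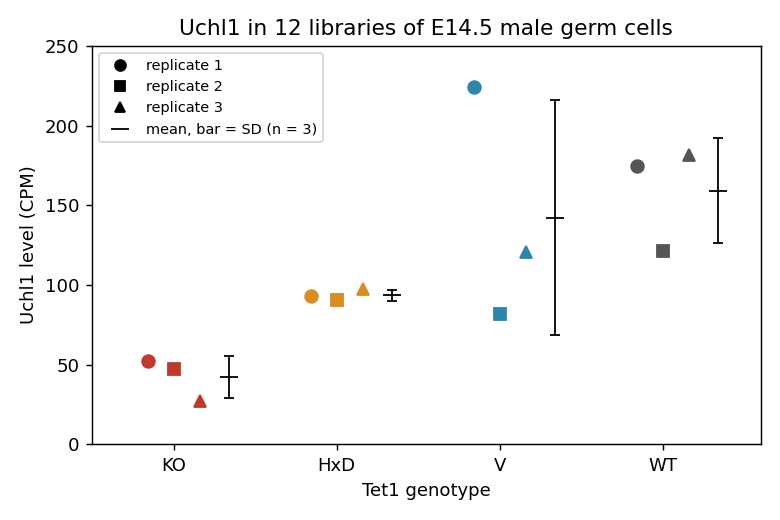
Uchl1 level in each library (CPM, linear axis from 0) by genotype, with the mean and SD of 3 libraries. The KO points sit between 27.5 and 52.2 CPM, below the 9 others, the HxD points lie close together near 93.6 CPM, and V runs from 81.6 to 224 CPM.

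Between mutants, HxD had 2.22 times the KO mean (log2 fold change 1.15), V had 3.37 times the KO mean (1.75) and V had 1.52 times the HxD mean (0.61). The V mean leaned on V 1. Without V 1 the V mean was 101 CPM, which is 0.636 of the WT mean and 2.40 times the KO mean, and V 2 and V 3 then lay below every WT library, V 3 by less than 1 CPM. Without V 2 the V mean was 1.084 times the WT mean, and without V 3 it was 0.960 times. V 1 also had the highest summed level of 9 mitochondrially encoded genes, 27054 CPM against 9532 to 18266 CPM in the other libraries. V 2, the lowest V library, had the largest sum of 12 Sertoli cell markers, 460 CPM against at most 146 CPM elsewhere. It also had the largest sum of 9 macrophage markers, 35.6 CPM against at most 7.12 CPM elsewhere. The part of either library's difference in the V mean was not tested.

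The first 408 bases of Uchl1 (chromosome 5, 66676091 to 66676498) overlap the antisense gene Uchl1os, and whether the counting used strand is not given in the sources used here. Uchl1os had 0 counts in all KO and all HxD libraries, 4.87, 0.407 and 0 CPM in V, and 0.551, 1.82 and 0 CPM in WT. It was at most a small fraction of the Uchl1 level in every library. Reads from the overlap cannot be told apart.

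Neurons are another known source of UCHL1. The summed level of 16 neuronal and neural crest markers was 23.8 to 31.4 CPM in KO, 5.36 to 21.7 CPM in HxD and 24.1 to 30.8 CPM in V, against 10.8 to 37.4 CPM in WT. Of the 16 genes, 12 had a count in at least 1 library, and the highest on average was Map2, a microtubule-associated protein gene, at 9.21 to 25.9 CPM in KO, 1.74 to 12.9 in HxD and 4.02 to 11.4 in V, against 3.11 to 18.7 in WT. Snap25, Dbh and Gap43 had 0 counts in all 12 libraries. The part of such cells in the Uchl1 levels was not tested.

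No other ubiquitin C-terminal hydrolase gene with appreciable counts was lower in KO than in WT on average. Per kb of exon, Uchl1 was the most abundant of them in WT, at 97.6 CPM per kb, followed by Bap1 (39.99), a nuclear histone deubiquitinase, the proteasome-bound enzyme gene Uchl5 (22.6) and Uchl3 (14.7). In KO Uchl1 stood at 25.9 CPM per kb. Uchl5 averaged 101 ± 17.1 CPM in KO against 65.9 ± 18.3 CPM in WT (edgeR log2 fold change 0.62 with SE 0.25, adjusted p = 0.476), and Uchl3 averaged 67.7 ± 16.4 CPM in KO against 56.3 ± 6.69 CPM in WT. Bap1 averaged 188 ± 21.3 CPM in KO against 187 ± 6.37 CPM in WT. Uchl4, a near-identical copy of Uchl3 whose counts are uncertain for that reason, stayed below 4 CPM in every library. Uchl1 set aside as untested, edgeR and DESeq2 called 0 of the 14 other ubiquitin genes listed in KO against WT. Of these 14, 2 had an unadjusted p under 0.05, beside 8.30% of all tested genes. Their median log2 fold change was -0.036.

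The receptor arm of GDNF signalling was uneven: Ret had counts in 11 of 12 libraries, and its co-receptor gene Gfra1 was near 0. Ret (chromosome 6, 118151745 to 118197718, minus strand), the signalling kinase, had 6.40, 15.5 and 0 CPM in KO, 5.91, 0.770 and 7.24 CPM in HxD, 15.02, 2.04 and 28.1 CPM in V, and 44.7, 11.5 and 29.9 CPM in WT. The WT and V libraries were the more abundant on average, and every HxD library lay below every WT library, while KO 2 exceeded WT 2.

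Ret averaged 7.29 ± 7.77 CPM in KO against 28.7 ± 16.6 CPM in WT, and the difference did not pass the test (edgeR log2 fold change -1.98 with SE 1.06, adjusted p = 0.634). In HxD it averaged 4.64 ± 3.42 CPM (log2 fold change against WT -2.63, SE 1.09, 95% interval -4.85 to -0.41, unadjusted p = 0.0216, edgeR adjusted p = 0.560). In V it averaged 15.1 ± 13.0 CPM (edgeR log2 fold change against WT -0.93 with SE 1.03, adjusted p = 1). The SD was close to or above the mean in KO and V, which is wide beside the 112 to 891 counts that 9 of the 12 libraries held.

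Gfra1 (chromosome 19, 58235604 to 58455909, minus strand), the GDNF-binding co-receptor, had 0, 3.01 and 2.06 CPM in KO, 0, 0 and 1.10 CPM in HxD, 0.358, 0 and 0 CPM in V, and 0, 0.364 and 0 CPM in WT. That is 0 counts in 7 of 12 libraries, and 8 counts at most in V and WT against 64 and 54 counts in KO 2 and KO 3. No fold change is given at these counts. Gdnf itself, chosen here after its values were seen, reached 8.01 CPM in V 2 and at most 1.74 CPM elsewhere. V 2 also had the largest sum of 12 Sertoli cell markers, 460 CPM, against 12.7 to 146 CPM in the 11 other libraries.

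Among 25 other tested genes of the GDNF receptors and their adaptors, edgeR called 0 in KO, HxD or V against WT, and DESeq2 called 0 in each. An unadjusted p under 0.05 was reached by 2 of them in KO, by 0 in HxD and by 2 in V, beside 8.30%, 8.24% and 6.05% of all tested genes, so 2 of 25 is near the background. The docking protein gene Gab2 averaged 43.5 ± 15.1 CPM in KO against 21.6 ± 4.63 CPM in WT (edgeR log2 fold change 1.01 with SE 0.43, adjusted p = 0.526). The Ras exchange factor gene Sos1 averaged 129 ± 26.6 CPM in KO against 173 ± 9.52 CPM in WT (edgeR log2 fold change -0.42 with SE 0.20, adjusted p = 0.592). The median log2 fold change of the 25 genes was -0.32 in KO, -0.057 in HxD and -0.14 in V, beside 0.0026, -0.021 and 0.013 over all tested genes.

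The transcription factor genes among the members ranged from abundant to absent. Etv5 (chromosome 16, 22381309 to 22439719, minus strand), an ETS factor of the PEA3 group, was the most abundant in counts, at 257, 245 and 264 CPM in KO, 248, 321 and 259 CPM in HxD, 205, 297 and 317 CPM in V, and 231, 302 and 333 CPM in WT. All 4 genotypes overlapped. The KO mean of 255 ± 9.49 CPM stood against a WT mean of 289 ± 52.7 CPM (edgeR log2 fold change -0.18, with a 95% interval of -0.54 to 0.19 and an adjusted p of 0.937). HxD averaged 276 ± 39.0 CPM and V 273 ± 59.6 CPM, with log2 fold changes against WT of -0.06 and -0.08 (edgeR adjusted p = 1 in both).

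Egr4, a zinc finger factor of the early growth response family whose loss makes male mice infertile, had 0, 1.504 and 0 CPM in KO, 1.37, 1.28 and 5.04 CPM in HxD, 10.02, 1.04 and 5.06 CPM in V, and 24.7, 5.68 and 10.9 CPM in WT. The counts were 0, 32 and 0 in KO and 125 to 493 in WT. Every KO library and every HxD library lay below every WT library, while V overlapped all groups. KO averaged 0.501 ± 0.868 CPM against 13.8 ± 9.83 CPM in WT, which is 3.64% of the WT mean.

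In the fit, Egr4 had a log2 fold change of -4.77 in KO against WT (SE 1.73, 95% interval -8.30 to -1.25, unadjusted p = 0.00961), and it did not pass the threshold over all genes (edgeR adjusted p = 0.377). DESeq2 called it (log2 fold change -4.81, SE 1.34, DESeq2 adjusted p = 0.0258), in a fit that called 274 genes in this comparison. EdgeR called it only without KO 2, the only KO library with a count (edgeR adjusted p = 0.0291). Both KO libraries left are then at 0, so this call follows from the removal and is no separate support. The range of edgeR and DESeq2 adjusted p over 18 alternatives was 0.0258 to 0.796. HxD averaged 2.56 ± 2.14 CPM (edgeR log2 fold change against WT -2.43 with SE 1.55, adjusted p = 0.657) and V 5.37 ± 4.50 CPM (edgeR log2 fold change against WT -1.36 with SE 1.496, adjusted p = 1). V against KO gave a log2 fold change of 3.42 (SE 1.62, unadjusted p = 0.0438, edgeR adjusted p = 1).

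The EGR relatives Egr1 and Egr2 did not show a gap as wide on average. Egr1, the family's widely induced member, averaged 13.7 ± 6.91 CPM in KO and 9.40 ± 2.39 CPM in HxD, against 15.9 ± 3.84 CPM in WT, and Egr2 averaged 2.81 ± 2.77 CPM in KO against 7.41 ± 10.4 CPM in WT, where WT 3 held most of it. Egr3 had a count in WT 1 alone. Per kb of exon Egr4 was the most abundant of the family in WT, at 6.41 CPM per kb against 3.54 for Egr1, and in KO the values were 0.233 for Egr4 and 3.06 for Egr1. Among 12 other tested EGR genes and partners, edgeR and DESeq2 called 0 in KO against WT. At an unadjusted p under 0.05 there were 0, beside 8.30% of all tested genes, and 0 of 12 is near that share. The EGR corepressor gene Nab1 averaged 7.18 ± 1.93 CPM in KO against 19.4 ± 6.76 CPM in WT (edgeR log2 fold change -1.44 with SE 0.82, adjusted p = 0.644). The ETS factor gene Elk1, which activates early response genes, averaged 43.6 ± 10.4 CPM in KO against 56.8 ± 16.9 CPM in WT. For the 12 genes the median log2 fold change was -0.17 in KO, -0.74 in HxD and -0.19 in V against WT.

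Id4 (chromosome 13, 48261228 to 48266026, plus strand) encodes a protein that binds E proteins and keeps them off DNA, and marks spermatogonial stem cells in mice. It had 9.54, 24.3 and 10.5 CPM in KO, 22.8, 3.17 and 7.95 CPM in HxD, 8.54, 12.6 and 15.4 CPM in V, and 16.3, 16.8 and 20.9 CPM in WT. Every V library lay below every WT library, and KO and HxD each had 1 library above the WT range. KO averaged 14.8 ± 8.27 CPM, HxD 11.3 ± 10.3 CPM and V 12.2 ± 3.46 CPM, against 18.0 ± 2.53 CPM in WT. Against WT the log2 fold change was -0.28 for KO, -0.67 for HxD and -0.56 for V, each with an SE of 0.69 and none past the edgeR threshold.

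Among its relatives Id3 was the most abundant in WT per kb of exon, at 26.5 CPM per kb, against 4.67 for Id4, 2.46 for Id1 and 0.858 for Id2. Id3 averaged 46.3 ± 6.85 CPM in KO against 47.4 ± 10.3 CPM in WT. The E protein genes Tcf4 (74.0 ± 16.2 CPM in KO against 103 ± 19.9 CPM in WT) and Tcf12 (114 ± 8.30 CPM in KO against 147 ± 36.9 CPM in WT) did not pass the test. Of the 6 relatives and partners tested, edgeR and DESeq2 called 0 in KO against WT. At an unadjusted p under 0.05 there were 0, beside 8.30% of all tested genes, and 0 of 6 is near that share.

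Zbtb16 (chromosome 9, 48654297 to 48836222, minus strand), Bcl6b (chromosome 11, 70224128 to 70229798, minus strand) and Sohlh1 (chromosome 2, 25842995 to 25847248, minus strand) were at or near 0. Zbtb16, a zinc finger repressor, had 0 counts in all KO and HxD libraries, 28, 0 and 0 counts in V, and 43, 12 and 0 counts in WT. Bcl6b, another repressor of this class, had 50 counts in HxD 1 and 0 in the 11 other libraries, and Sohlh1, a basic helix-loop-helix factor, had 0 counts in all 12. A count of 0 allows up to 3 counts per library, which is 0.101 to 0.221 CPM at these depths, and covers counting error only. Bcl6b and Sohlh1 did not pass the expression filter, and Zbtb16 and Gfra1 passed it on counts in a few libraries.

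**Figure D2:**
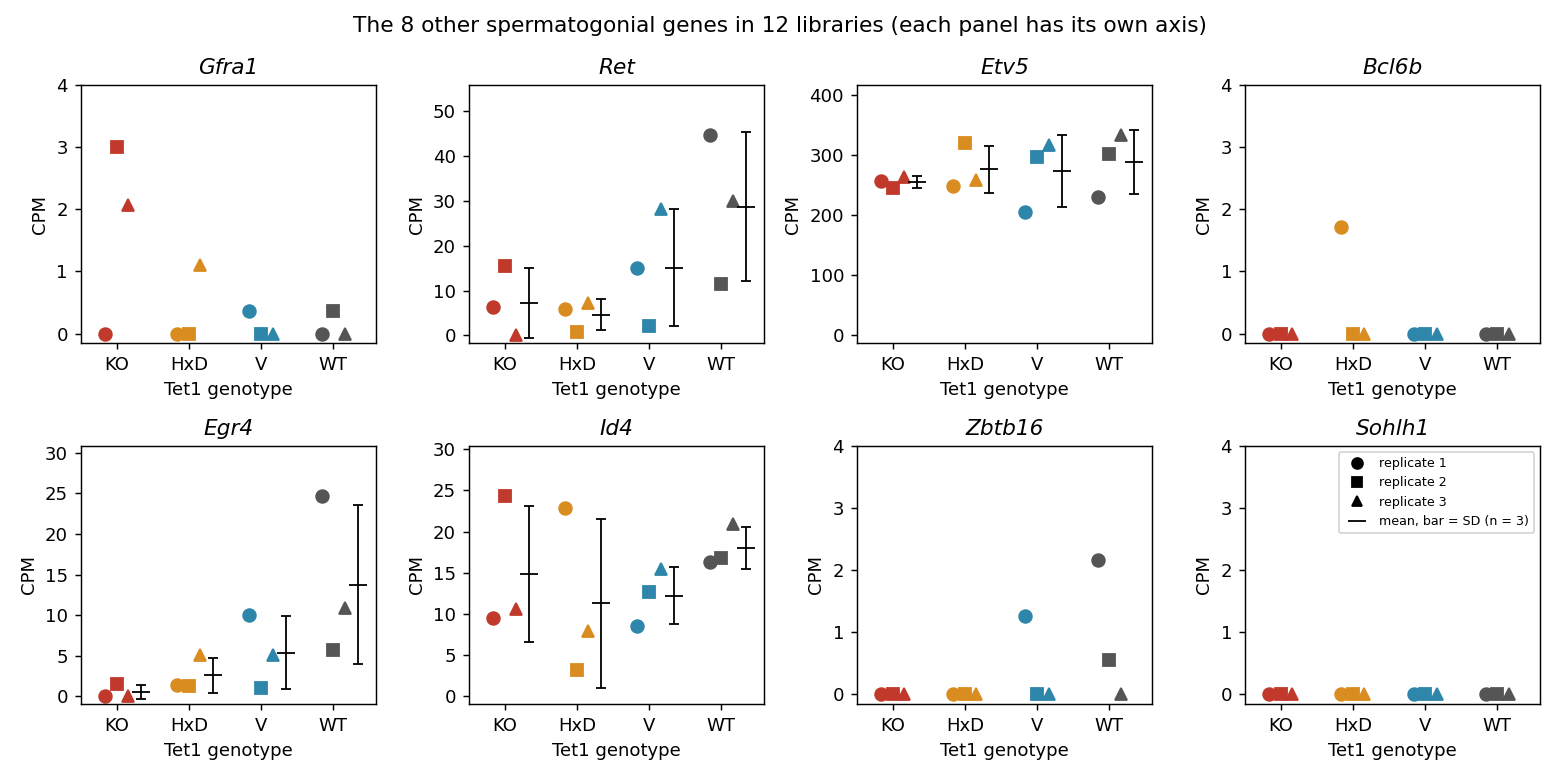
Level of the 8 other members in each library (CPM, a linear axis of its own per panel) by genotype, with mean and SD of 3 libraries where the gene was not near 0. Egr4 in KO and HxD lies below its WT points, the genotypes of Etv5 overlap between 205 and 333 CPM, and Gfra1, Zbtb16, Bcl6b and Sohlh1 are at 0 in most libraries or all.

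Other factors of spermatogonial stem cells gave 3 of 18 tested genes with an unadjusted p under 0.05 in KO against WT, beside 8.30% of all tested genes. EdgeR called 0 of them, and DESeq2, which called 274 genes in all, called 1. That gene was Mycl, a MYC family member, which averaged 137 ± 23.5 CPM in KO, 128 ± 20.1 CPM in HxD and 93.0 ± 8.57 CPM in V, against 73.3 ± 19.2 CPM in WT. All 3 KO libraries lay above all WT libraries (edgeR log2 fold change 0.91 with SE 0.22, adjusted p = 0.0790, DESeq2 adjusted p = 0.00237). Sox3, needed for spermatogonial development in mice, averaged 25.5 ± 10.1 CPM in KO against 7.15 ± 3.94 CPM in WT (edgeR log2 fold change 1.84 with SE 0.67, adjusted p = 0.377). For the 18 genes the median log2 fold change was -0.18 in KO, -0.17 in HxD and -0.13 in V against WT.

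Of the other surface and marker genes of spermatogonia, 4 of 14 tested had an unadjusted p under 0.05 in KO against WT, all lower in KO, beside 8.30% of all tested genes. In HxD it was also 4 of 14 lower, beside 8.24%, and in V 1 of 14, beside 6.05%. EdgeR called 0 of them in each, and DESeq2 called Itga6, Mcam and Ddx4 in KO, named after their values were seen, and 0 in HxD or V. Over all genes DESeq2 called 274 in KO, 213 in HxD and 81 in V against WT. Itga6 (integrin alpha 6) averaged 18.2 ± 11.8 CPM in KO against 58.6 ± 15.2 CPM in WT (edgeR log2 fold change -1.68 with SE 0.43, adjusted p = 0.110). Ddx4, the germ cell RNA helicase gene, averaged 532 ± 63.1 CPM in KO against 862 ± 108 CPM in WT (edgeR log2 fold change -0.70 with SE 0.17, adjusted p = 0.0823). Mcam averaged 21.7 ± 8.12 CPM in KO and 55.8 ± 7.87 CPM in V (V against KO edgeR log2 fold change 1.36 with SE 0.33, adjusted p = 0.285). DESeq2 also called Mcam in HxD against KO and in V against KO, where it called 128 and 89 genes in all. For the 14 genes the median log2 fold change was -0.35 in KO, -0.22 in HxD and -0.18 in V against WT.

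In the differentiation genes, 3 of 15 tested had an unadjusted p under 0.05 in KO against WT, beside 8.30% of all tested genes, with 0 called by edgeR or DESeq2 and a median log2 fold change of -0.26. Dmrt1, which holds off meiosis in mouse spermatogonia, averaged 136 ± 8.80 CPM in KO against 189 ± 32.7 CPM in WT (edgeR log2 fold change -0.48 with SE 0.18, adjusted p = 0.437). The genes listed as SOHLH targets from other studies gave 1 of 8 at that p, 0 called by edgeR and 1 by DESeq2 (Nobox, an oocyte homeobox gene, named after its values were seen), with a median of -0.11. Zp1, a zona pellucida gene among them, had 0 counts in KO and V, 0, 2.10 and 3.23 CPM in HxD, and 2.46, 1.64 and 0 CPM in WT. Nobox averaged 0 CPM in KO and 0.867 ± 1.07 CPM in V, so its DESeq2 call sets WT against KO libraries at 0.

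FGF response genes and PEA3 factors beside Etv5 gave 3 of 13 with an unadjusted p under 0.05 in KO against WT, beside 8.30% of all tested genes. EdgeR called 0 of them, and DESeq2, which called 274 genes in all, called 2, Il17rd and Fgfr1. Il17rd, an inhibitor of FGF signalling, averaged 188 ± 20.5 CPM in KO, 245 ± 13.0 CPM in HxD and 206 ± 22.9 CPM in V, against 284 ± 22.8 CPM in WT (KO against WT edgeR log2 fold change -0.59 with SE 0.16, adjusted p = 0.150, DESeq2 adjusted p = 0.00269). The receptor gene Fgfr1 averaged 170 ± 1.37 CPM in KO against 104 ± 24.7 CPM in WT (edgeR log2 fold change 0.70 with SE 0.21, adjusted p = 0.215, DESeq2 adjusted p = 0.0380). Both had KO libraries apart from all WT libraries, in opposite directions. Of the paralogs of Etv5, Etv4 averaged 50.7 ± 12.7 CPM in KO against 54.9 ± 18.7 CPM in WT, and Etv1 averaged 18.3 ± 7.31 CPM in KO against 35.5 ± 10.7 CPM in WT; both were named after their values were seen.

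Of the 8 members beside Uchl1, 6 were tested, and edgeR called 0 of them in each of the 6 comparisons. It called 0.218% of all tested genes in KO against WT, 0.0340% in HxD against WT, 0% in V against WT, 0.00680% in HxD against KO, 0.0204% in V against KO and 0% in V against HxD. At an unadjusted p under 0.05 there was 1 member in KO against WT (Egr4), beside 8.30% of all tested genes, 1 in HxD against WT (Ret), beside 8.24%, and 1 in V against KO (Egr4), beside 4.10%. There were 0 in V against WT, HxD against KO and V against HxD, beside 6.05%, 4.67% and 5.07%. DESeq2 called Egr4 in KO against WT, where it called 274 of all 14702 genes, and 0 of the 6 elsewhere. Its counts over all genes were 213 in HxD against WT and 81 in V against WT. Between mutants they were 128 in HxD against KO, 89 in V against KO and 115 in V against HxD. Libraries did not overlap for 1 of the 6 in KO against WT (Egr4), where 16.3% of all tested genes did not overlap. In HxD against WT it was 2 of 6 (Egr4 and Ret), beside 12.5% of tested genes, and in V against WT 1 of 6 (Id4), beside 11.8%. It was 0 of 6 in HxD against KO, V against KO and V against HxD, beside 9.33%, 10.3% and 7.99%. A share of 1 in 6 is close to that over all genes in KO against WT. The comparisons with WT share the WT libraries, and those between mutants share mutant libraries.

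**Figure D3:**
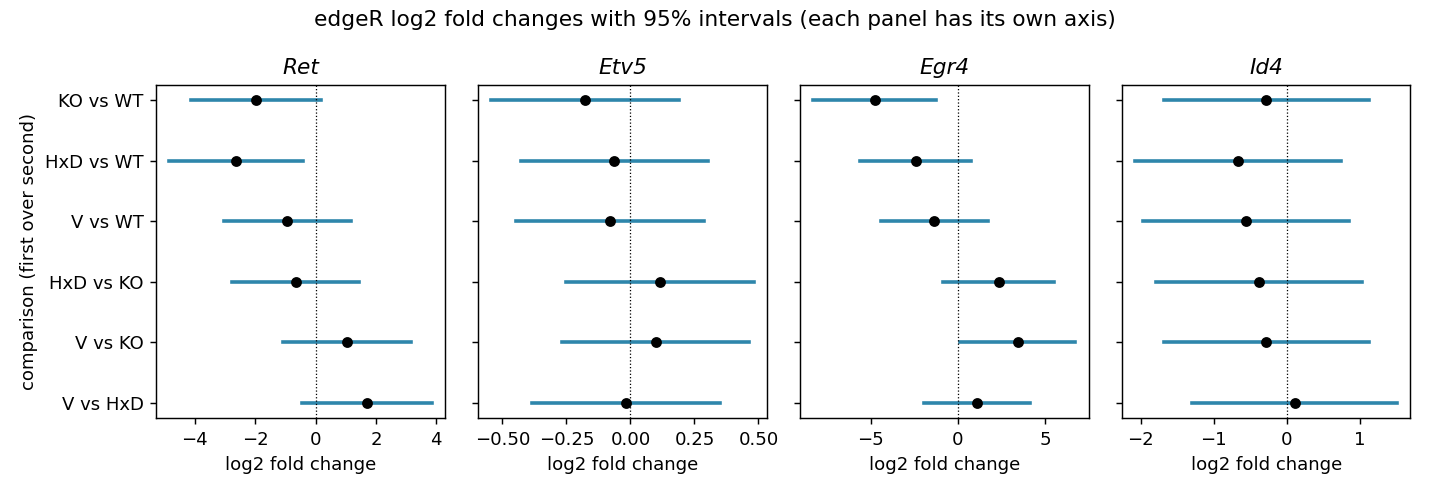
Log2 fold changes from edgeR (points) with 95% intervals (bars) for Ret, Etv5, Egr4 and Id4 in the 6 comparisons, on a linear log2 axis of its own per panel, first genotype over second. Intervals of Etv5 are the narrowest and those of Egr4 the widest of the 4 genes, and only Ret in HxD against WT and Egr4 in KO against WT and V against KO exclude 0 before adjustment.

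The genes most like each member across the 12 libraries were ranked by Pearson's r of log2 CPM among genes averaging at least 8 CPM. The libraries share genotype, scaling and depth, so r is a description. For Uchl1 the nearest were the POU homeobox gene Pou6f1 (r = 0.94, rho = 0.97), the autophagy receptor gene Optn (r = 0.92, rho = 0.84) and the peptidase gene Ece1 (r = 0.87, rho = 0.83). Pou6f1 had 11.6, 10.7 and 6.26 CPM in KO, 18.5, 15.7 and 37.3 CPM in HxD, 71.7, 12.4 and 44.3 CPM in V, and 41.8, 32.9 and 44.3 CPM in WT, with V 1 highest as for Uchl1. After the genotype means were taken out, r with Uchl1 was 0.84 for Pou6f1, 0.64 for Optn and 0.75 for Ece1. Without the 2 libraries farthest from the median of Uchl1, r was 0.88, 0.88 and 0.77 for the same genes. Genes here and below were picked by r over these same libraries, so such values are partly fixed by that choice.

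Ece1 was also the nearest gene to Egr4 (r = 0.93, 0.90 within genotypes), followed by the zinc finger gene Bnc2 (r = 0.91) and the phosphodiesterase gene Pde4c (r = 0.89). Pde4c was in turn the nearest to Ret (r = 0.92, 0.93 within genotypes), ahead of Man2a1 (r = 0.90) and Ccdc136 (r = 0.89). Without the 2 libraries farthest from the median of Ret, r was 0.72 for Pde4c, 0.67 for Man2a1 and 0.88 for Ccdc136. Nearest to Etv5 were Kif18a (r = 0.91), Papola (r = 0.90) and Hace1 (r = 0.89), and nearest to Id4 were Gramd3 (r = 0.90), Afap1l2 (r = 0.88) and Rrm2b (r = 0.88). For Gfra1 and Zbtb16, which are at 0 in most libraries, the ranking rests on a few libraries and is left out. No gene was shared between the lists of Etv5 or Id4 and those of Uchl1, Egr4 and Ret. With lists this short, that does not set these members apart.

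**Figure D4:**
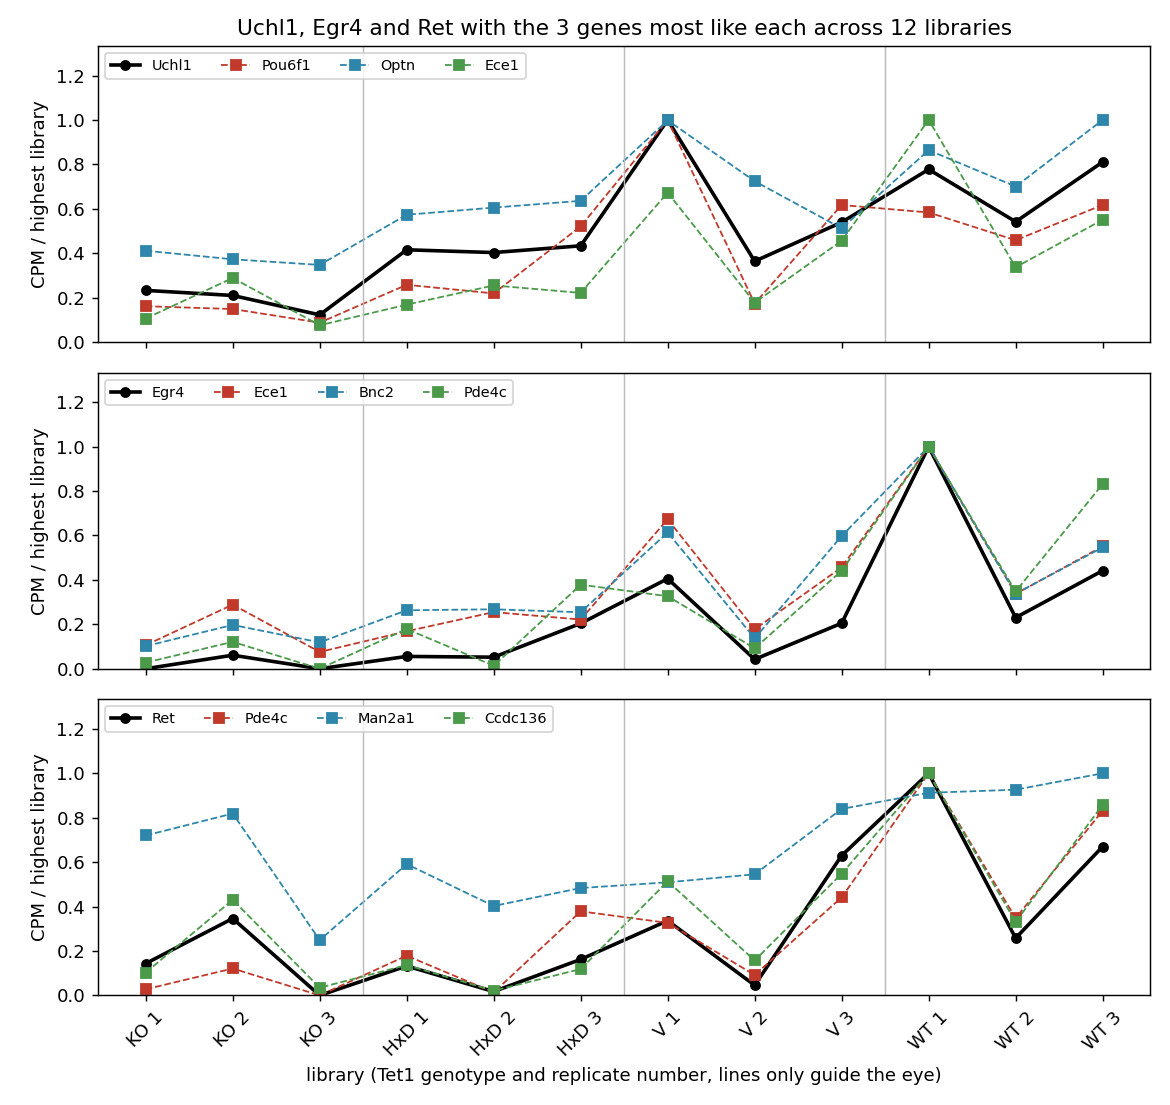
Level of Uchl1, Egr4 and Ret (black circles) and of the 3 genes most like each (coloured squares) in the 12 libraries, as CPM divided by that gene's highest library, on a linear axis from 0. Pou6f1 and Optn peak with Uchl1 in V 1 or in WT and are lowest in KO 3, and the genes beside Egr4 peak with it in WT 1.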

How the data were processed

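The values are read counts, deposited by the authors as 1 whole number per gene and library, not normalized. The tools featureCounts 2.0.3, STAR 2.7.10b, SAMtools 1.9, Trim Galore 0.6.7 and FastQC are named in the submitters' processing notes. There the builds GRCm39 and mm10 are named without a role. Neither the strand setting nor the annotation is stated in the sources used here. Of the value columns, 12 name a sample and were used, and 1 names none and was not used. A further WT sample was not analysed here.

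The 14702 genes passing edgeR's default filter were scaled by TMM and fitted over the 12 libraries with genotype as the only term (edgeR 4.0.16, R 4.3.3, quasi-likelihood F-test, two-sided). P-values were adjusted by Benjamini-Hochberg over all tested genes, with a threshold of 0.05. The SE was derived from the fold change and its F. The common biological coefficient of variation was 0.932. The scripts were tested on simulated data.

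The members and gene lists were chosen with earlier results of these data known. Named list genes are those called in any comparison or, where none was called, the 2 with the smallest p in KO against WT. The ubiquitin hydrolase, EGR and ID family genes are named by the same rule, to set a member beside its family. Dazl, Map2 and other genes named after their values were seen fall outside it. Gene positions are from GENCODE on GRCm38. Alternatives were RLE scaling, DESeq2 1.42.0, no filter, a stricter filter of 8 CPM, 2 genotypes only, a replicate block and leaving out each library. No pair of libraries held identical counts.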

Additional observations from a re-analysis of the deposited data

How the results depend on the processing

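The count of members called by edgeR was 0 in each comparison and stayed 0 under the 19 alternatives, except in KO against WT, where it was 1 (Egr4) with DESeq2 and ran from 0 to 1 when 1 library was left out (1 without KO 2). With the stricter filter Egr4 was not tested. Without KO 2 both KO libraries left are at 0, so the fitted fold change is no bound. Setting WT 3 and V 3 aside together was chosen after seeing the data. Mycl, not called in KO against WT, was called in 11 of 19 alternatives.

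The counts of all genes called depended strongly on the setting. They were 32 in KO against WT (11 to 274), 5 in HxD against WT (1 to 213), 0 in V against WT (0 to 81), 1 in HxD against KO (1 to 128), 3 in V against KO (0 to 89) and 0 in V against HxD (0 to 115). Uchl1 was picked for its fall in KO in these libraries, so its sign in KO against WT was largely fixed by that choice. Its log2 fold changes there ran from -2.10 to -1.68. In V against WT it ran from -0.64 without V 1 to 0.12 without V 2.

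Among the other members, no difference passed the edgeR threshold in the main fit, so any sign that turned belonged to such a difference. The cause of these turns was not tested. With 1 library left out, Etv5 ran from -0.20 to 0.051 in HxD against WT (0.0066 without HxD 1, 0.051 without WT 3), from -0.22 to 0.099 in V against WT (0.099 without V 1, 0.036 without WT 3), from -0.0076 (without HxD 2) to 0.18 in HxD against KO, from -0.021 (without V 3) to 0.27 in V against KO, and from -0.14 to 0.15 in V against HxD (0.15 without V 1, 0.11 without HxD 2). Ret ran from -1.24 to 0.53 in HxD against KO (0.53 without KO 2). Id4 ran from -1.42 to 0.17 in HxD against KO (0.17 without KO 2, 0.058 without HxD 2), from -0.52 to 0.28 in V against KO (0.28 without KO 2), and from -0.34 to 1.14 in V against HxD (-0.34 without HxD 2, -0.095 without HxD 3, -0.097 without V 3). With WT 3 and V 3 aside, Etv5 was 0.052 in HxD against WT and -0.021 in V against KO, and Id4 was -0.097 in V against HxD.

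Same-numbered libraries had deviations from their group means that correlated at -0.065 to 0.088, and 5 of 12 libraries correlated best with their own number. No sign of pairing by number was seen, though so few libraries cannot exclude it. With the replicate block the count of members called stayed 0 in each comparison, and that of all genes in KO against WT was 104.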

Other observations

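Nanos2, an RNA-binding protein gene of male germ cell fate, was chosen after its values were seen. It had 0.972, 0 and 1.30 CPM in KO, 2.39, 0 and 2.33 CPM in HxD, 7.78, 0 and 13.9 CPM in V, and 22.1, 3.82 and 0 CPM in WT. The highest KO library lay below WT 1 and WT 2, and each genotype had a library at 0, so the groups overlapped. Of the GFRA paralogs, also chosen after their values were seen, Gfra4 was the most abundant in WT per kb of exon, at 8.29 CPM per kb, against 1.13 for Gfra2, 0.870 for Gfra3 and 0.022 for Gfra1.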
